A study of Mus musculus with 5 samples.

Results

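The cells described here were chosen by measured UMIs as maturing alveolar macrophages of the fetal mouse lung, 399 of 19491 kept barcodes in 5 single-cell RNA libraries. A member passed 4 conditions: 500 or more detected genes and no more than 15% of its UMIs (unique molecular identifiers, which count RNA molecules) from mitochondria, at least 1 UMI of the leukocyte genes Tyrobp or Laptm5, at least 1 UMI of at least 2 of Car4, Krt79, Atp6v0d2 and Fabp4, and 0 UMIs of Epcam, Cdh5 and Pdgfra, which mark epithelium, endothelium and fibroblasts. Each library came from the dissociated whole lungs of 1 mouse embryo at stage E18.5, digested with collagenase, treated with red-cell lysis buffer and loaded on a droplet instrument without any sort. The labels give 2 embryos as Zswim8+/- (Het1 and Het2) and 3 as Zswim8-/- (KO1, KO2 and KO3), so every embryo carried at least 1 mutant copy and no wild-type lung was compared. The labels do not give the strain, the litters or the nature of the mutant allele. Members were set against 4138 comparison cells, other barcodes under the same conditions that were no members and held at least 1 UMI for at least 3 of 6 alveolar macrophage lineage genes (Ear2, Lpl, Plet1, Abcg1, Olr1 and Axl).

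Alveolar macrophages live on the air side of the alveoli, where they clear surfactant lipid, inhaled particles and dying cells. They descend from fetal monocytes and macrophages that enter the lung before birth, and their final differentiation around birth depends on GM-CSF, TGF-beta and the lipid-sensing nuclear receptor PPAR-gamma. On the way they take up scavenger receptors, fatty acid binding proteins and a lysosomal apparatus suited to lipid, and they lose monocyte genes. Of the 4 genes that chose the members, Car4 encodes a membrane-bound carbonic anhydrase, Fabp4 a fatty acid binding protein, Atp6v0d2 a subunit of the vacuolar proton pump that is also used in osteoclasts, and Krt79 a keratin found in mature alveolar macrophages. Car4 and Fabp4 are also genes of lung endothelium, which is why the condition on Cdh5 bears on them.

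Over whole libraries, 56608582 to 93708304 UMIs were deposited per library, and 3129 to 4820 barcodes passed the barcode filter. Members were deeper than comparison cells, with a median of 17714.5 to 21489 UMIs per cell against 14646.5 to 17192, and a rule that asks for detected genes depends on depth. Summed over its members, Het1 gave 3420088 UMIs, Het2 3771102, KO1 214781, KO2 376655 and KO3 632628, so each KO value rests on few cells. No barcode was a member in 2 libraries, and 2 members shared their barcode with a kept barcode of another library (Het1 and KO3). KO1 and KO2 came from female embryos and the other 3 libraries from males by Xist and Y-linked UMIs, so sex is partly confounded with genotype. Zswim8 itself (chr14:20707552-20723619, GRCm38, plus strand) was at 26.3, 27.3, 14.0, 21.3 and 33.2 CPM (counts per 1e6 UMIs) in the members of Het1, Het2, KO1, KO2 and KO3, an order kept for all values below. These levels overlapped between genotypes, and since the assay reads only the end of a transcript they are no check of the labels.

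The label was checked against other genes of the lineage, which the rule did not use. At least 5 of the 6 lineage genes were detected in 345 of the 399 members, and under 3 were detected in 9 (2, 4, 2, 0 and 1). Lyz2, the lysozyme of myeloid cells, was found in 168 of 169, 172 of 173, 9 of 10, 17 of 17 and 30 of 30 members. Marco, the scavenger receptor of alveolar macrophages, stood at 181, 195, 173, 207 and 103 CPM against 33.6, 45.3, 23.97, 13.1 and 13.7 CPM in comparison cells. Pparg was as high in comparison cells as in members, with 102, 112, 83.9, 82.4 and 127 CPM in members and 102, 105, 77.3, 81.9 and 90.5 in comparison cells. Genes of the adult cell were sparse: Siglecf was found in 15, 15, 0, 3 and 5 members, and Chil3 in 3, 8, 0, 1 and 0. All 12 markers of the lineage were detected over the members of Het1, Het2 and KO2, 11 over those of KO3 and 9 over those of KO1. The 10 cells of KO1 went against the label in part, with Atp6v0d2, Siglecf, Itgax and Chil3 all at 0 UMIs. A single stage was sampled, so the word maturing stands for a marker pattern and not for an observed course.

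Members were many in both heterozygous lungs and few in every lung labelled KO. They numbered 169 in Het1, 173 in Het2, 10 in KO1, 17 in KO2 and 30 in KO3. As a share of kept barcodes this was 3.51% in Het1 (95% exact binomial interval 3.00% to 4.06%) and 4.12% in Het2 (3.53% to 4.76%). It was 0.320% in KO1 (0.153% to 0.587%), 0.511% in KO2 (0.298% to 0.818%) and 0.747% in KO3 (0.505% to 1.07%), where intervals cover counting error only. The groups did not overlap. The Het mean was 3.81% ± 0.431 (SD, n = 2) and the KO mean 0.526% ± 0.214 (SD, n = 3), a ratio of 0.138. Comparison cells made up 21.5% and 25.0% of kept barcodes in Het and 15.1%, 21.1% and 21.97% in KO, and these groups overlapped. Within members plus comparison cells, the share of members was 14.0% and 14.2% in Het and 2.08%, 2.37% and 3.29% in KO, a ratio of means of 0.183. Per 100 leukocyte barcodes the means were 7.68 and 1.15. The 4 choosing genes were picked with their lower level in KO lungs already known, so these numbers are a description, and an exact permutation test of 2 against 3 libraries cannot in any case go below 0.2. The ratio stayed between 0.109 and 0.165 with any 1 library removed, but it was 0.0503 when at least 3 of the 4 genes were needed, 0.0765 when Krt79 or Atp6v0d2 was needed and 0.0561 when each cell was thinned to 5000 UMIs. It was 0.179 when the condition on Epcam, Cdh5 and Pdgfra was dropped.

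**Figure D1:**
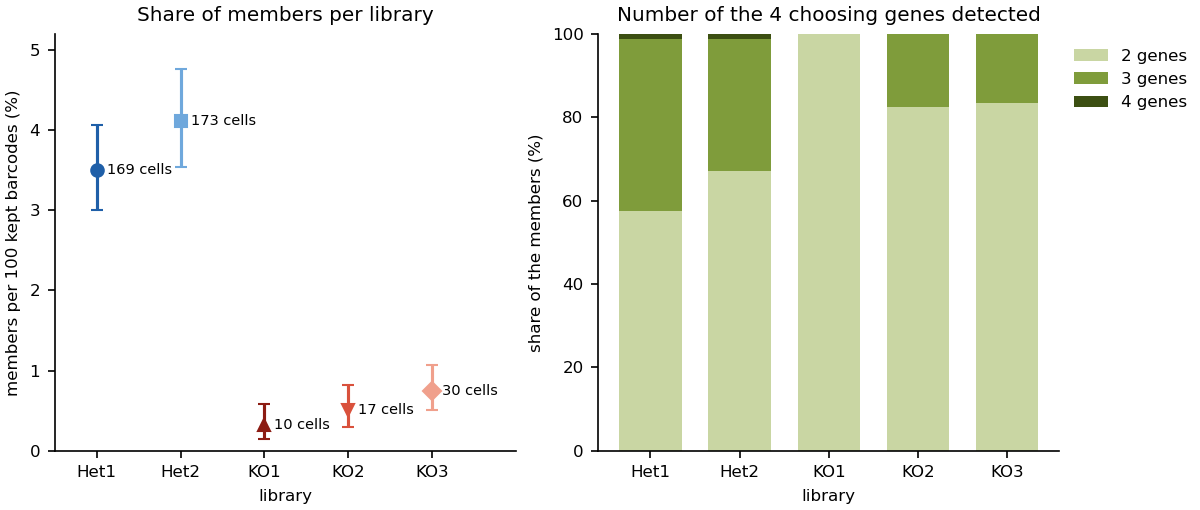
Left, members per 100 kept barcodes in each library, with the number of members and bars for the 95% exact binomial interval. Right, the share of each library's members in which 2, 3 or 4 of the choosing genes were detected; Het1 and Het2 stand at 3.51% and 4.12% on the left, all KO libraries below 1%, and KO1 has no member with more than 2 genes.

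The few KO members also carried fewer of the choosing genes. In Het1, 97, 70 and 2 members held 2, 3 and 4 of the genes, and in Het2 116, 55 and 2. In KO1 all 10 members held 2, in KO2 14 held 2 and 3 held 3, and in KO3 25 held 2 and 5 held 3. Just outside the rule, leukocyte barcodes with exactly 1 of the genes numbered 338, 335, 105, 153 and 232. Car4 with Fabp4 was the commonest pair, alone in 43, 61, 7, 10 and 18 members, and Car4, Atp6v0d2 and Fabp4 together were found in 62, 51, 0, 2 and 5. Krt79 was seen in 35, 24, 3, 2 and 1 members and Atp6v0d2 in 97, 92, 0, 5 and 11.

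The levels of the choosing genes in members describe the rule at work and carry no test. Car4 (ENSMUSG00000000805, chr11:84957786-84966044, plus strand) was at 780, 740, 103, 205 and 394 CPM, and Atp6v0d2 (ENSMUSG00000028238, chr4:19876841-19922605, minus strand) at 229, 254, 0, 74.4 and 98.1 CPM. Fabp4 (ENSMUSG00000062515, chr3:10204088-10208576, minus strand) was at 1185, 1220, 280, 819 and 511 CPM. Krt79 (ENSMUSG00000061397, chr15:101929332-101940324, minus strand) was at 22.8, 19.4, 14.0, 5.32 and 1.58 CPM. Single cells held much of the KO totals: 46 of the 60 Fabp4 UMIs of KO1 lay in 1 cell, as did 172 of 308 in KO2 and 147 of 323 in KO3. Mesenchymal cells, barcodes with Pdgfra and no UMI of Tyrobp, Laptm5, Epcam or Cdh5, had median depths of 9556 to 11861 UMIs. Fabp4 was found in 10.2%, 22.3%, 25.9%, 8.54% and 15.7% of them. At most 1 barcode per library held 2 or more of the choosing genes, or 0.377%, 0.344%, 0%, 0.407% and 0.271% of 246 to 398 barcodes. The deeper members of KO1, KO2 and KO3 were 0.320%, 0.511% and 0.747% of kept barcodes. Of leukocyte barcodes they were 0.916%, 0.976% and 1.56%. In barcodes of red cells, with median depths of 2328 to 2621.5 UMIs, Fabp4 was found in 0.378% to 2.97%. The part of free RNA in the pairs with Fabp4 was not tested.

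Members were next set against the comparison cells of their own library. Of 3188 genes that averaged 50 CPM or more in either set, 29 (0.91%) had the same direction in all 5 libraries with a median of at least 2-fold higher in members, and 41 (1.29%) were at least 2-fold lower. The 29 include the choosing genes Fabp4 and Car4, the receptor gene Marco, the lipid genes Fabp5 and Hilpda and the secreted factors Ccl6 and Wfdc21. The rule chose cells by genes of the same cells, so this contrast is given without a test. Log2 ratios were taken after adding 1 CPM to each value, which understates the ratio of low genes. The 20 genes with the largest and the 10 with the lowest median ratio among those of 1 direction are named below, and the plot of ratios by library shows them all.

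**Figure D2:**
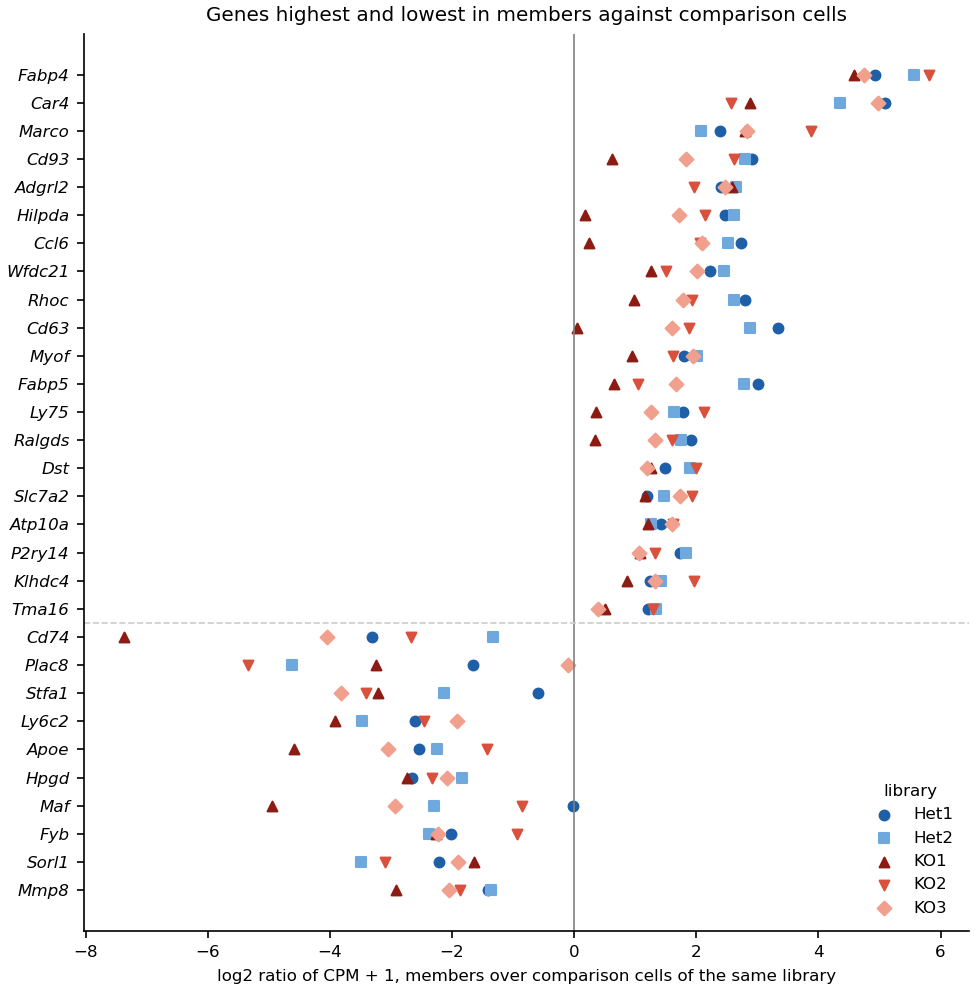
Log2 ratio of CPM + 1 in members over comparison cells of the same library (horizontal axis) for the 20 genes with the highest and the 10 with the lowest median, with 1 symbol per library. Ratios of the upper genes lie above 0 in all 5 libraries, with KO1 nearest to 0 for Ccl6, Hilpda and Cd63.

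Surface receptors led the list after the choosing genes. The median log2 ratio was 2.80 for Marco, 2.62 for Cd93, which encodes a C-type lectin-like receptor of myeloid and endothelial cells, and 2.48 for Adgrl2, a latrophilin adhesion receptor. Ly75, the endocytic receptor DEC-205, followed at 1.63 and P2ry14, the receptor for UDP-glucose, at 1.33. Marco UMIs came from a minority of the cells, 54 of 169, 56 of 173, 3 of 10, 6 of 17 and 5 of 30 members. Of the 23 pattern-recognition and phagocytic receptors of the list used here, 19 reached 50 CPM. Marco alone was at least 2-fold higher with 1 direction in all libraries, as were 0.91% of all 3188 genes. The lectin receptors Clec4d and Clec4e had medians of 1.33 and 0.78, with a value below 0 in KO1 for each.

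Few lipid genes stood at least 2-fold apart. Fabp5 (ENSMUSG00000027533, chr3:10012548-10016607, plus strand), the fatty acid binding protein encoded beside Fabp4 on chromosome 3, was at 3645, 3203, 1105, 1284 and 1595 CPM in members. In comparison cells it was at 454, 464, 706, 620 and 500 CPM, below the members in every library. Hilpda, an inhibitor of triglyceride breakdown on lipid droplets, was at 627, 675, 112, 303 and 279 CPM in members against 67.9 to 113 in comparison cells. Plin2, the coat protein of lipid droplets, had a median log2 ratio of 0.72, and Lpl, lipoprotein lipase, one of 0.51. On the efflux side, Apoe stood at 144, 126, 121, 460 and 166 CPM in members against 846, 602, 2935, 1232 and 1375 in comparison cells, lower in every library. Abcg1, the cholesterol exporter that alveolar macrophages need, had a median of -0.12. Lpl and Abcg1 were also used to choose the comparison cells, so both ratios describe that choice in part. Of 28 genes of lipid uptake, storage and efflux, 21 reached 50 CPM. With 1 direction in all libraries, Fabp5 and Hilpda were at least 2-fold higher and Apoe lower. The choosing gene Fabp4, whose level the rule fixed, was higher too. The median of the list was 0.21, against -0.07 for all 3188 genes, of which 0.91% were higher.

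Several secreted factors had high ratios in every library but KO1. Ccl6, a CC chemokine of myeloid cells, was at 6359, 6043, 909, 3306 and 3681 CPM in members against 772 to 1052 in comparison cells. Its KO1 members lay beside the comparison cells, and the other 4 libraries far above them. Wfdc17, a small whey acidic protein of activated macrophages, was at 2187, 2590, 14.0, 805 and 353 CPM against 53.2 to 155. Cxcl2, a neutrophil-attracting chemokine, was at 5779, 6359, 681, 2894 and 2394 CPM against 862 to 1522. Interleukin 1 alpha (Il1a) was at 701, 723, 0, 457 and 340 CPM, and tumour necrosis factor (Tnf) at 453, 611, 14.0, 407 and 290 CPM, both above their comparison cells except in KO1. Inhba, the activin A subunit, followed the same course with 474, 720, 14.0, 423 and 190 CPM. Over the 16 of 28 listed factors that reached 50 CPM, the median log2 ratio was 2.22, 2.37, -0.91, 1.84 and 1.90. At least 2-fold higher with 1 direction in all libraries were 2 of them, Ccl6 and Wfdc21, as were 0.91% of all 3188 genes. With KO1 left out, the number of genes at least 2-fold higher in members went from 29 to 81 over all genes, the 29 among them.

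**Figure D3:**
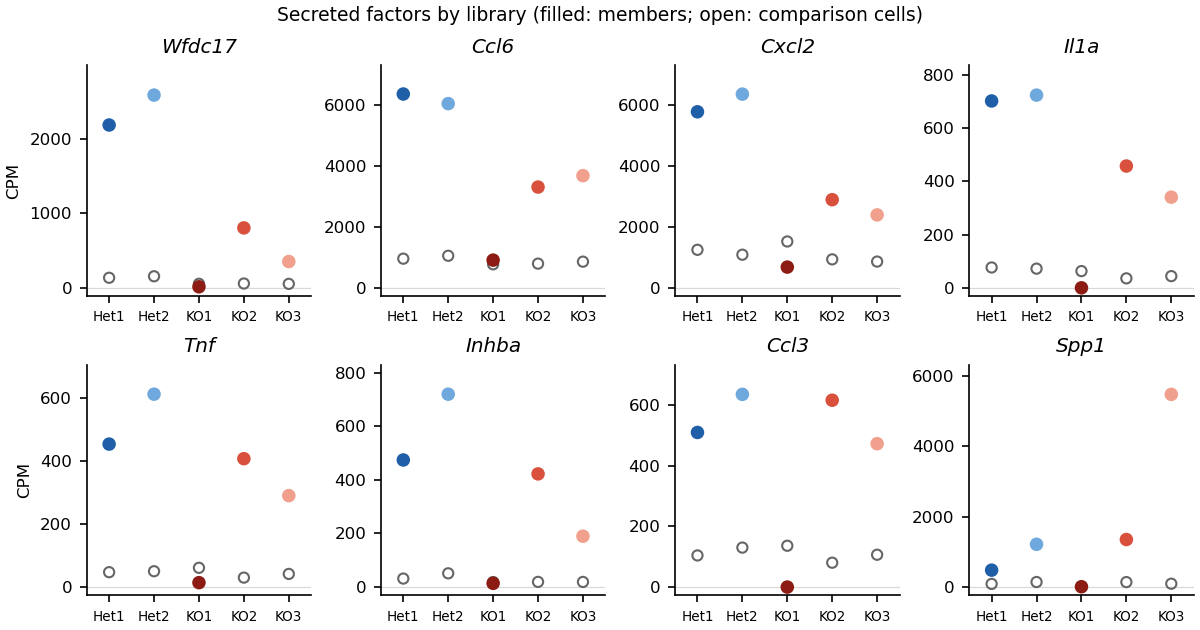
CPM of 8 secreted factors in each library, filled for members and open for comparison cells, each panel with its own linear axis. Members of Het1, Het2, KO2 and KO3 lie above their comparison cells in all 8 panels, while KO1 members lie below theirs for every factor but Ccl6, and Spp1 peaks in KO3 at 5482 CPM.

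Spp1, osteopontin, is one of the markers of the label but was no choosing gene, and it was the most uneven of them. It was at 481, 1217, 9.32, 1353 and 5482 CPM in members and at 90.2, 143, 15.3, 142 and 95.9 CPM in comparison cells. KO3 was high and KO1 low, and the genotypes overlapped. It was detected in 77, 86, 2, 10 and 17 members, and single cells carried 1116 of 4583 UMIs in Het2, 360 of 509 in KO2 and 1136 of 3464 in KO3. Without the cell of the highest count the members were at 443, 921, 4.66, 396 and 3684 CPM. Its log2 difference between genotypes was 1.26 (standard error, SE, 1.22; edgeR adjusted p 0.639).

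Of 20 lysosomal genes at 50 CPM, Cd63 alone was at least 2-fold higher with 1 direction in all libraries, as were 0.91% of all 3188 genes. The median of the list was 0.28, with -0.26 in KO1. Cd63, a tetraspanin of late endosomes, was at 243, 187, 74.6, 130 and 128 CPM in members against 23.2, 24.6, 72.3, 34.7 and 41.5 in comparison cells, a near tie in KO1 only. Cathepsin K (Ctsk), a collagen-degrading protease of osteoclasts, was at 35.7, 65.0, 4.66, 15.9 and 17.4 CPM in members against at most 6.17, with a median log2 ratio of 3.20. Of 17 proton pump subunits, all at 50 CPM or more, none passed the rule; Atp6v0d2 itself has 0 UMIs in KO1 and so no common direction, and the median of the list was 0.28, with -0.21 in KO1. Among other osteoclast genes, Acp5 had a median of -0.45, Nfatc1 -0.39 and Tnfrsf11a -0.68. Of 14 listed genes of cell fusion and osteoclasts, 4 reached 50 CPM. Their median was 0.47 and lay above 0 in every library. Ferritin genes were high in the Het members, with Fth1 at 25371, 36267, 7832, 16817 and 14668 CPM against 7748 to 10257 in comparison cells, and KO1 alone lay within the range of comparison cells. Smaller members of the list were Myof (median log2 ratio 1.80), a membrane repair protein, Rhoc (1.93) and Ralgds (1.60), a small GTPase and an exchange factor, Dst (1.49), a cytoskeletal linker, the amino acid carrier Slc7a2 (1.47), the lipid flippase Atp10a (1.42), Klhdc4 (1.32), Tma16 (1.22) and Wfdc21 (2.00).

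Receptors and transcription factors of alveolar macrophage development were close between the 2 sets. The GM-CSF receptor chain Csf2ra was at 186, 195, 149, 173 and 176 CPM in members against 140 to 167 in comparison cells, and Csf2rb at 470, 495, 387, 473 and 472 against 401 to 445. Bhlhe41, a repressor that holds alveolar macrophage identity, had a median log2 ratio of 1.87 at low levels (4.66, 21.3 and 9.49 CPM in the members of KO1, KO2 and KO3). Of the 22 receptors and factors listed, 16 reached 50 CPM, none passed the 2-fold line upward and Maf, a factor of interstitial macrophages, passed it downward with a median of -2.30. Over all 3188 genes, 0.91% passed it upward and 1.29% downward.

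Genes low in members included Cd74 and Ly6c2. Cd74, the invariant chain of MHC class II, was at 9.07, 52.6, 0, 15.9 and 4.75 CPM against 94.4 to 164 in comparison cells, and Ly6c2, the monocyte antigen, at 12.6, 6.64, 4.66, 15.9 and 25.3 against 81.7 to 98.4. Plac8 had a median of -3.24, Stfa1 -3.22, Hpgd, which inactivates prostaglandins, -2.34, the adaptor Fyb -2.23, the sorting receptor Sorl1 -2.22 and the collagenase Mmp8 -1.87. The complement gene C1qa was at 1.76, 0.53, 0, 186 and 4.75 CPM, and 69 of the 70 UMIs in KO2 came from 1 cell. Of 7 listed monocyte genes at 50 CPM, 3 were at least 2-fold lower with 1 direction in all libraries, and none higher. Over all 3188 genes, 1.29% were lower. Ccr2 was at 208, 168, 280, 303 and 446 CPM against 406 to 503. Comparison cells are a wider class that can hold monocytes and other macrophages with 3 lineage genes, so the lower set also describes their mixture.

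Members with Krt79 and members with Atp6v0d2 differed in other genes, which are described here. Among members with at least 3 lineage genes and no mixture with another lineage (described below), 26 in Het1 and 20 in Het2 held Krt79 without Atp6v0d2, 72 and 75 held Atp6v0d2 without Krt79, and 6 and 4 held both. Wfdc17 was at 3694 and 3356 CPM in the Atp6v0d2 cells of Het1 and Het2, against 478 and 25.1 CPM in their Krt79 cells. Gpnmb, a lysosomal glycoprotein of lipid-laden macrophages, was at 235 and 174 against 2.09 and 0 CPM, and Fabp5 at 5605 and 4261 against 765 and 690. Ear2, an eosinophil-associated ribonuclease of the lineage, ran the other way at 135 and 121 against 612 and 414 CPM, as did Rrm1, a subunit of ribonucleotide reductase, at 22.8 and 41.4 against 130 and 168. Marco did not separate them, at 241 and 245 against 244 and 319 CPM. Across the 137 and 147 such members of Het1 and Het2, Spearman's rho of log CPM between Atp6v0d2 and Gpnmb was 0.68 and 0.63, with Ear2 -0.52 and -0.39, with Krt79 -0.38 and -0.32 and with Marco -0.02 and -0.07. The cells of a library share its depth and its free RNA, so these values are a description. The rule needs any 2 of the 4 genes, so a member without one is more likely to hold another, which by itself pushes Krt79 and Atp6v0d2 apart.

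Levels also followed the number of choosing genes a cell held. In Het1, Ccl6 was at 797, 1391, 3637 and 9603 CPM in lineage cells with 0, 1, 2 and 3 or 4 of the genes, and in KO3 at 795, 1085, 2651 and 8621, over 716, 166, 24 and 5 cells. Fabp5 went from 364 to 700, 2564 and 4930 CPM in Het1 and from 451 to 671, 1317 and 2401 in KO3. Gpnmb reached 214 and 178 CPM in the Het cells with 3 or 4 genes, where the 3 cells of KO2 had 11.4 and the 5 of KO3 had 0. Between 0 and 3 or 4 genes Ear2 went from 570 to 160 CPM in Het1 and from 413 to 27.3 in KO3, but from 334 to 365 in KO2. Pparg stayed between 71.3 and 135 CPM in all these cells. In cells with exactly 2 choosing genes, Fabp5 was at 2564 and 2654 CPM in Het and at 1199, 1191 and 1317 in KO. These groups did not overlap, nor did those of 37.5% of all genes tested in members. The pair itself was not fixed. Of all members with 2 genes, 43 of 97, 61 of 116, 7 of 10, 10 of 14 and 18 of 25 held Car4 with Fabp4. In members with that pair alone, a setting chosen after seeing the data, the log2 difference of Fabp5 was -1.25 (edgeR adjusted p 0.0402). With Krt79 or Atp6v0d2 needed in each member it was -1.13 (edgeR adjusted p 0.844). Of the 12 genes called between all Het and KO members (described next), 7 were tested with the pair alone and 3 passed.

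**Figure D4:**
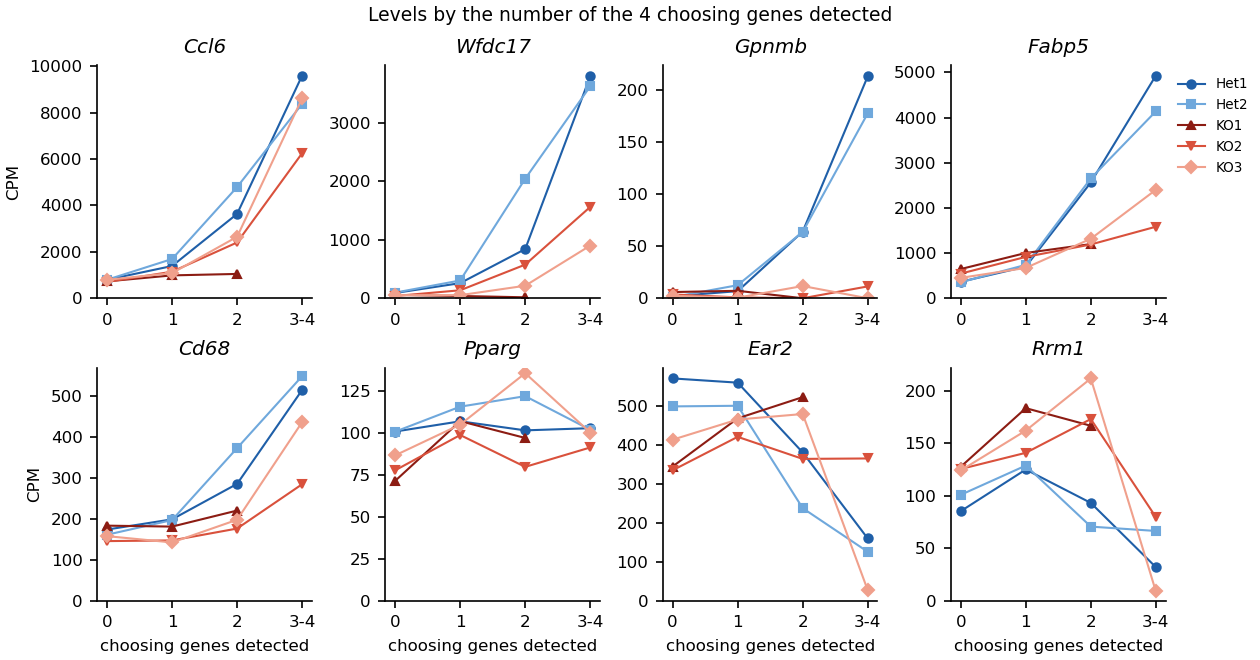
CPM of 8 genes in leukocyte barcodes with at least 3 lineage genes, summed per library over cells with 0, 1, 2 and 3 or 4 of the choosing genes (horizontal axis), with 1 line per library and no value for KO1 in the last class. Ccl6 and Fabp5 climb with the number of genes, Wfdc17 is highest at 3 or 4 genes in the 4 libraries that hold such cells, Gpnmb climbs in Het1 and Het2, Pparg stays between 71.3 and 135 CPM and Ear2 is lower at 3 or 4 genes than at 0 in Het1, Het2 and KO3.

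The next comparison asked which genes differed between Het and KO within the members. UMIs were summed over the members of each library and fitted with edgeR, so that the library is the replicate. Of 6702 genes tested, 12 (0.179%) passed an adjusted p of 0.05, 11 lower (0.164%) and 1 higher (0.0149%) in KO, and 1096 had an unadjusted p under 0.05. Groups did not overlap in 37.5% of all genes tested. None of the choosing genes is among the 12, and all 12 separated the groups. The count is fragile: it was 1 without KO2, 3 without KO3, 47 without KO1, 0 with embryo sex added as a covariate (743 at an unadjusted p under 0.05) and 105 with DESeq2. All 12 kept their direction in each alternative in which they were tested.

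**Figure D5:**
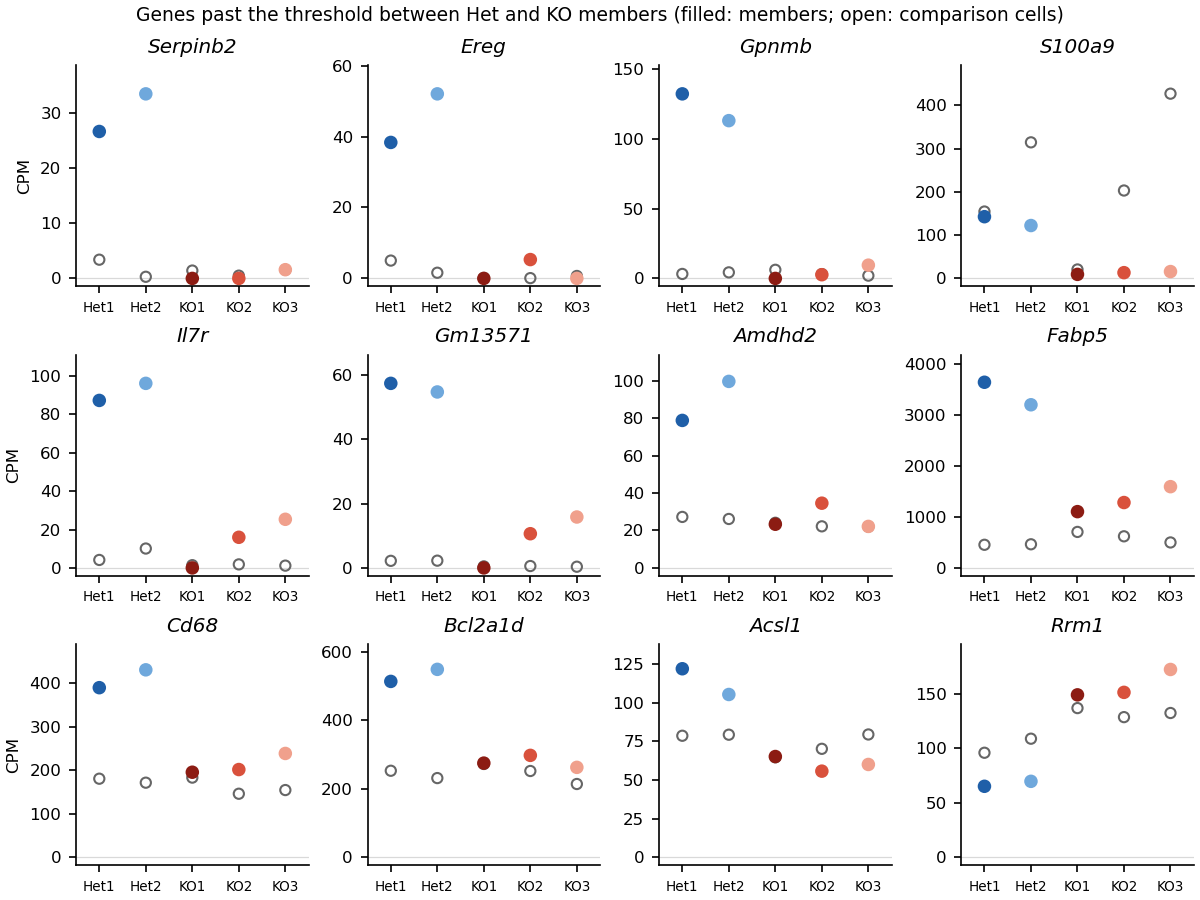
CPM of the 12 genes past an edgeR adjusted p of 0.05 between Het and KO members, by library, filled for members and open for comparison cells, each panel with its own linear axis from 0. Het members lie above all KO members in 11 panels and below them for Rrm1, and open circles of S100a9 lie above the filled ones in all libraries.

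Among the lower genes were 5 of lipid, lysosomal and sugar metabolism. Gpnmb (ENSMUSG00000029816, chr6:49036546-49070929, plus strand) was at 132, 113, 0, 2.66 and 9.49 CPM in members, high in both Het libraries and near 0 in the others. Its log2 fold change was -4.59 (SE 0.37) with an edgeR adjusted p of 0.00118, and it passed in 4 of 5 fits with 1 library left out. It was found in 60 of 169 and 61 of 173 Het members and in 0 of 10, 1 of 17 and 4 of 30 KO members, against 0.271% to 1.01% of mesenchymal cells. Fabp5 differed by -1.54 (SE 0.18) with an edgeR adjusted p of 0.0209, from 3420 CPM ± 313 (SD, n = 2) to 1326 ± 248 (SD, n = 3). Cd68, the lysosomal glycoprotein macrosialin, was at 390, 431, 196, 202 and 239 CPM (log2 fold change -1.11, SE 0.17, edgeR adjusted p 0.0453). Acsl1, which activates long-chain fatty acids, was at 122, 105, 65.3, 55.8 and 60.1 CPM (-1.10, edgeR adjusted p 0.0473). Amdhd2, an enzyme of amino sugar breakdown, was at 78.7, 99.6, 23.3, 34.5 and 22.2 CPM (-1.94, edgeR adjusted p 0.0260). With 1 library left out Fabp5 and Amdhd2 passed in 3 of 5 fits, and Cd68 and Acsl1 in 1 of 5. For Fabp5 and Cd68 the KO members lay between the comparison cells of their library and the Het members. With Krt79 or Atp6v0d2 needed in each member no gene passed, and Gpnmb was at -3.80 (edgeR adjusted p 0.0733). In members with Car4 and Fabp4 alone, Cd68 was at -0.72 (edgeR adjusted p 0.165), Acsl1 at -0.60 (0.338) and Amdhd2 at -1.56 (0.0916).

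Secreted, receptor and survival genes made up most of the others. Ereg, the growth factor epiregulin, had 131 and 196 UMIs in the Het members and 2 in all KO members, a KO to Het ratio of 0.0359 (counting interval 0.00433 to 0.131). Serpinb2, plasminogen activator inhibitor 2, had 91 and 126 UMIs in Het and 1 in KO, a ratio of 0.0271 (0.000682 to 0.152), and 1 cell held 47 of the UMIs in each Het library. Both intervals cover counting error only, not the spread between cells or libraries. The edgeR adjusted p of Ereg and Serpinb2 was 0.0263 and 0.0240. Il7r, the interleukin 7 receptor that fetal macrophages carry for a time, was at 87.2, 96.1, 0, 15.9 and 25.3 CPM (log2 fold change -2.55, SE 0.36, edgeR adjusted p 0.0347). Gm13571, an antisense gene without an assigned role, lies within Ly75 on the opposite strand. It was at 57.4, 54.7, 0, 10.6 and 15.8 CPM (-2.47, edgeR adjusted p 0.0429). Bcl2a1d, of the A1 family of inhibitors of cell death, was at 513, 549, 275, 298 and 263 CPM (-1.11, edgeR adjusted p 0.0347), and its near-identical copies can share reads, so its own level is uncertain. With 1 library left out Ereg passed in 3 of 5 fits, Serpinb2 and Il7r in 2 of 5, and Gm13571 and Bcl2a1d in 1 of 5.

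S100a9, a calprotectin subunit made in bulk by neutrophils, had the lowest adjusted p and needs its surroundings. It was at 143, 122, 9.32, 13.3 and 15.8 CPM in members (log2 fold change -3.43, SE 0.23, edgeR adjusted p 0.000541), and at 154, 314, 20.6, 203 and 427 CPM in comparison cells. A single cell held 293 of 487 UMIs in Het1 and 326 of 460 in Het2, and without the cell of the highest count the members stood at 56.8, 35.6, 0, 10.6 and 12.7 CPM. S100a9 was also found in 50.2%, 46.7%, 21.4%, 30.5% and 30.4% of mesenchymal cells, which should lack it, against 58.0%, 50.3%, 10.0%, 29.4% and 26.7% of the deeper members. Shares of members with a UMI were thus close to those of mesenchymal cells. S100a9 passed in 5 of 5 fits with 1 library left out. With predicted doublets removed its difference was -2.91 (edgeR adjusted p 0.0534), and that of Ereg -4.53 (edgeR adjusted p 0.0676).

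Rrm1, needed for the synthesis of deoxynucleotides, was the only gene higher in KO members. It was at 65.3 and 69.8 CPM in Het and at 149, 151 and 172 CPM in KO (log2 fold change 1.06, SE 0.15, edgeR adjusted p 0.0347). It passed in 1 of 5 fits with 1 library left out, and with Krt79 or Atp6v0d2 needed in each member its difference was 0.52 (edgeR adjusted p 0.844). Comparison cells had 96.1, 109, 137, 129 and 133 CPM, so Het members lay below and KO members above their own comparison cells. Of the 22 genes tested of the cell cycle list, which does not hold Rrm1, none passed. Their log2 differences were above 0 in 20 of the 22, with a median of 0.63 against 0.02 over all genes tested. Cdk1, the mitotic kinase, was at 43.3, 45.1, 97.9, 85.0 and 94.9 CPM (edgeR adjusted p 0.0603), and Ccnb1, cyclin B1, at 30.7, 38.0, 121, 77.1 and 74.4 (edgeR adjusted p 0.0749). Relative to comparison cells the median log2 ratio of the cell cycle list was -0.48 and -0.56 in Het and 0.30, 0.14 and -0.01 in KO.

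Other lists gave few calls and are described by their medians, beside 3229 of 6699 genes with a difference below 0 and a median of 0.02 over all genes tested. Of all genes tested in members, 0.179% were called. Of 28 secreted factors, 17 passed the low-count filter, none was called, and 15 had a difference below 0 with a median of -0.80. The lowest of these were Wfdc17 (-2.75, SE 0.77, edgeR adjusted p 0.133) and Cxcl2 (-1.78, SE 0.44, 0.0987), whose groups did not overlap. Among lysosomal enzymes and membrane proteins, 21 of 23 were below 0 with a median of -0.56 and 2 calls (Gpnmb and Cd68), and among proton pump subunits 16 of 17, Atp6v0d2 included, with a median of -0.47 and no call. Lipid genes, a list that holds the choosing gene Fabp4, had 17 of 26 below 0 (median -0.28) with Fabp5 and Acsl1 called. Over the 18 settings of the fit the median ran from -1.52 to -0.55 for secreted factors, -0.70 to -0.36 for lysosomal genes, -0.61 to -0.27 for the pump and -0.42 to -0.05 for lipid genes, the last with sex as a covariate. That of cell cycle genes ran from 0.08, with Krt79 or Atp6v0d2 needed and 9 of 20 genes below 0, to 0.83. Scaling by library size alone moved the median of all genes to 0.20, the pump list to -0.29 and the lysosomal list to -0.38. Glycolysis and hypoxia genes (0.05, 19 tested) and the GM-CSF, TGF-beta and transcription factor list (-0.09, 22 tested) had medians near that of all genes, no call and a sign that changed between settings (-0.11 to 0.25 and -0.38 to 0.09). Hilpda, in both the lipid and the hypoxia list, was at -1.62 (SE 0.30) with an edgeR adjusted p of 0.0596, and Pparg at -0.24 (0.575).

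Comparison cells, with more cells in every library, gave 248 calls of 12593 genes (1.97%), 60 higher (0.476%) and 188 lower (1.49%) in KO, and 2384 genes at an unadjusted p under 0.05, while groups did not overlap in 37.2% of genes. Scaled by library size alone, the calls were 61 higher and 77 lower. That number too was fragile, at 0 without Het2, 6 without Het1, 11 without KO2 and 434 without KO3, and 1 with sex as a covariate. Some genes high in members were lower in the comparison cells of KO lungs. Wfdc17 and Inhba, which were above comparison cells in the members of every library but KO1, were among them. Wfdc17 went from 135 and 155 CPM in Het to 54.0, 58.1 and 53.2 in KO (log2 fold change -1.43, SE 0.08, edgeR adjusted p 0.00386), and Inhba from 31.7 and 51.3 to 18.7, 19.4 and 19.2 (-1.15, edgeR adjusted p 0.0323). Dst, Myof, Ly75, Slc7a2 and Wfdc21, all at least 2-fold higher in members by their median, passed as well, with log2 fold changes of -1.18, -0.93, -0.89, -0.59 and -0.56. Of the 23 genes of alveolar macrophage identity and maturation, 10 were called lower and none higher, with Olr1 at -0.81, Plet1 at -0.62 and Lpl at -0.53. Those, Ear2 and Abcg1 were also used to choose the comparison cells, and Krt79, another of the 10, to choose the members. The largest rises were those of interstitial macrophage genes such as Fcrls (2.24), Ccl7 (2.19), Maf (1.91) and Ms4a7 (1.88), and 5 of the 17 listed genes of that class were called higher. Fabp5, Gpnmb and Cd68 had differences of 0.38, -0.09 and -0.16 there and were not called (edgeR adjusted p 0.245, 0.946 and 0.489).

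Whether a difference was larger in members than in comparison cells was tested by the term for genotype and cell set, with the library as a block. None of 11695 genes (0%) passed an edgeR adjusted p of 0.05, 1253 had an unadjusted p under 0.05, and DESeq2 called 77. The lowest adjusted p, 0.0801, was shared by Gpnmb (-4.37, SE 0.58), S100a9 (-3.74, SE 0.53) and Fabp5 (-1.99, SE 0.27). Amdhd2 and Bcl2a1d followed at -1.72 and -1.17 (edgeR adjusted p 0.0927 for both), and Rrm1 was at 0.65 (edgeR adjusted p 0.236). No difference of members can therefore be called particular to them by this fit. With mixed members left out (described next) 302 genes passed, and with 1 library left out 0 (KO2) to 31 (Het2).

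Markers of other cells were read beside these results, and their part in them was not tested. Neutrophil markers summed to 627, 617, 266, 364 and 438 CPM in members and monocyte markers to 297, 230, 308, 367 and 587. In both sums the genotypes did not overlap, nor did they in 37.5% of all genes tested in members. The neutrophil sum holds S100a9, most of whose Het UMIs lay in a single cell of each library. Over 8 monocyte genes tested in members the median difference was 0.59, with no call. Lymphoid markers summed to 98.3, 103, 23.3, 29.2 and 41.1 CPM, mainly from Il7r in the Het libraries, while Il7r was at 0 in KO1. In comparison cells, the largest fall in KO was that of Scgb1a1, a secretory gene of airway epithelium (-1.59, edgeR adjusted p 0.0323), and Flt1, a VEGF receptor of endothelium, fell by 1.25 on the log2 scale (edgeR adjusted p 0.0218). Scgb3a2, another airway gene, Adarb1, Ms4a8a, AW112010 and Nrp2 were also among the 10 largest falls there, the largest of these that of Adarb1 (-1.08). Dendritic cell markers summed to 11.7, 128, 0, 18.6 and 6.33 CPM in members, with H2-Aa at 0 in all KO libraries, and mast cell and basophil markers to at most 1.58 CPM with Mcpt8 at 0 in every library. Endothelial markers summed to 31.1 to 49.1 CPM with Tmem100 at 0 throughout, against 32.7 to 47.3 in comparison cells. Mesenchymal markers were at 512 and 345 CPM in Het1 and KO1 and at 21.3 to 152 in the other libraries, against 28.7 to 275 in comparison cells, and epithelial markers at 322 to 564 CPM against 306 to 518. By 2 UMIs each of at least 3 markers of 1 other lineage, 31 of 169, 24 of 173, 3 of 10, 3 of 17 and 7 of 30 members were mixed, mostly with epithelial genes. Of comparison cells, 114 of 1036, 103 of 1049, 56 of 471, 22 of 700 and 82 of 882 were mixed, a smaller share in every library. Without mixed members the ratio of the shares was 0.127 and 275 genes differed between Het and KO members, among them the same 12. Mixed comparison cells were kept in that setting, also in the test of genotype and cell set. Interstitial macrophage markers summed to 1119 CPM in KO2 and to 219 to 429 in the other libraries. Haemoglobin and other red-cell markers, which leak from lysed cells, summed to 16132, 5983, 1287, 10226 and 3159 CPM in members against 14768, 11136, 3819, 10404 and 8739 in comparison cells.

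Each library is 1 embryo, and no label says whether the embryos were litter mates or how their processing was grouped, so the p-values measure the spread between these libraries alone.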

How the data were processed

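Cells of whole E18.5 lungs were measured by droplet single-cell RNA sequencing with 3′ tags (10x Chromium v3.1 per the labels' protocols), 1 library for each of 2 Het and 3 KO embryos. The authors deposited UMI counts of 32285 genes in each barcode. Per the file headers, the counting software was Cell Ranger 4.0.0, and the genome was mm10 per the submitters' processing notes. The annotation and the filter behind the deposited barcodes are not given in the sources used here.

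Barcodes were kept and members chosen as the results state, and no doublet was removed; removal of predicted doublets was an alternative. The members, the gene lists and the rule for named genes were chosen with earlier results of these data known. Counts were summed per library over members and over comparison cells, filtered with filterByExpr, scaled by TMM and tested with edgeR 4.0.16 (quasi-likelihood, Benjamini-Hochberg) in R 4.3.3, for KO against Het in members, in comparison cells and for the interaction with the library as a block. DESeq2 1.42.0 was an alternative. Library totals set the precision, 214781 UMIs at the least in members. Thinning drew 5000 UMIs per cell. Cells and shares were handled in Python 3.11.15 with numpy 2.4.6 and scipy 1.17.1. Fits were tested on simulated data. In members, 42.5% of changes of 1 on the log2 scale and 95.8% of changes of 2 were recovered. With nothing changed, the member fit gave 0 to 5 false calls and the interaction fit 8 and 15. The interaction fit recovered 65.1% of changes of 2, with 27 false calls beside 127 true ones. Gene positions are GENCODE M21 on GRCm38, and 337 of 340 listed genes matched a row.

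Named genes were, between cell sets, the 20 highest and 10 lowest median log2 ratios (CPM + 1) among genes at 50 CPM with 1 direction in all libraries, and, between genotypes, the 10 largest called changes in each direction at 20 CPM. Genes of the lists could also be named. Sex-linked, haemoglobin and mitochondrial genes were left out of naming. Alternatives were other scaling, filter, depth, doublet, lineage and gene-number settings, sex as a covariate, the replicate number as a block, and each library left out.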

Additional observations from a re-analysis of the deposited data

How the results depend on the processing

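The share of members stayed lower in every KO library than in both Het libraries in all settings tried. Counts of genes moved much more. Between Het and KO members, 12 calls became 105 with DESeq2, 7 with library size alone, 68 with no filter on low counts, 24 after thinning, 25 without predicted doublets, 0 with sex as a covariate and 0 with Krt79 or Atp6v0d2 needed (198 at an unadjusted p under 0.05). They became 62 with at least 3 lineage genes, 69 with Car4 and Fabp4 alone and 275 without mixed members, these 3 chosen after seeing the data, and 1 to 47 with 1 library left out. In comparison cells, 248 calls became 558 with DESeq2, 138 with library size alone, 652 with no filter, 1 with sex as a covariate, 431 with at least 4 lineage genes and 0 to 434 with 1 library left out. The interaction went from 0 calls to 77 with DESeq2, 276 with no filter, 105 after thinning, 14 without doublets, 4 with at least 3 lineage genes, 302 without mixed members and 0 to 31 with 1 library left out. Genes at least 2-fold higher in members numbered 21 to 81 with 1 library left out. Those lower, 41, became 73 after thinning, 99 with Krt79 or Atp6v0d2 needed, 26 against cells with at least 4 lineage genes and 35 to 53 with 1 library left out. With the replicate block, 276 genes passed in members and 731 in comparison cells. Deviations from the group mean had correlations of 0.212 and 0.119 between same-numbered libraries in members. With 2 Het libraries, the deviations of one mirror those of the other, which fixes the cross pairs at -0.212 and -0.119. These values cannot decide whether same-numbered libraries belong together, and the 2 pairs share only a number. The cause of the changes in counts was not tested. The 12 called genes, where tested, and the shares kept their direction. The medians of the glycolysis and hypoxia list and of the receptor and transcription factor list changed sign between settings. Genes higher in members were fewer than those lower in the main setting, 29 against 41. They were more numerous against cells with at least 4 lineage genes (31 against 26) and without KO1 (81 against 43). Without a Het library the lone other one is assumed to vary like the KO libraries.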
